A study of Mus musculus with 4 samples.

Results

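Primitive endoderm is the first endoderm layer of the mouse embryo, and 6 of its transcription factor genes (Gata6, Gata4, Sox17, Sox7, Foxa2, Hnf4a) were examined together with Pdgfra, which encodes the platelet-derived growth factor receptor alpha and marks the same layer. All probe sets that the platform annotation listed with exactly 1 of these 7 symbols were taken, which gave 17 of 45101 probe sets on the array and 7 of 18193 genes. F9 cells, a line of mouse embryonal carcinoma, keep an undifferentiated embryonic state and can be turned into primitive, parietal or visceral endoderm in culture. Both groups had been infected with pLKO.1 lentivirus and selected with puromycin: shVector cells carried the vector control (2 arrays), and shPhf19 cells carried a short hairpin RNA against Phf19 (2 arrays), a gene whose product associates with Polycomb repressive complex 2. The labels call the 2 arrays of a group biological replicates, but neither the number of hairpin sequences nor the number of separate infections is given in the sources used here, so the tests take only the spread among the 4 arrays into account.

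In the embryo, FGF signalling through ERK favours Gata6 over the epiblast factor Nanog, and Gata6 then acts upstream of Pdgfra, Gata4, Sox17 and Sox7 as cells commit to primitive endoderm. Foxa2 and Hnf4a act later, mainly in visceral endoderm, where Hnf4a drives genes of secreted and absorptive functions. Several of these genes are silenced by Polycomb in undifferentiated cells and are also used elsewhere, Gata4 and Gata6 in the heart, Sox7 and Sox17 in endothelium, Foxa2 in the node and floor plate, and Pdgfra in mesoderm and fibroblasts.

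Values are deposited expression values, taken here as log2. The arrays had medians from 5.75 to 5.77 and correlated (Pearson's r over probe sets, a description) at 0.9974 within shVector, 0.9984 within shPhf19 and 0.9961 to 0.9970 between groups. Phf19 probe set 1427920_at stood at 6.07 and 6.14 in the shVector arrays and at 5.08 and 5.17 in the shPhf19 arrays. It passed the test described below as lower in shPhf19 (change -0.98, limma adjusted p = 0.0108). The other Phf19 probe set, 1431857_at, stood at 6.32 and 6.11 against 6.05 and 6.26 and did not pass (-0.06, adjusted p = 0.928). Having the higher mean, 1431857_at is the one that represents Phf19 where genes are counted below. The undifferentiated state of the cells was read from 8 embryonal carcinoma markers. All 8 are also in the pluripotency list read below, so they cannot tell F9 cells from other pluripotent lines. Their mean over genes was 12.67 and 12.76 in shVector and 12.70 and 12.71 in shPhf19. All 8 lay above the median level of all probe sets (5.75).

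Gata6, Sox17 and Pdgfra, 3 of the 7 genes, each had 1 probe set that rose in shPhf19 cells, by 2.28-fold, 2.67-fold and 2.26-fold. For Gata4, Sox7, Foxa2 and Hnf4a no probe set passed the test. A probe set is called here at an adjusted p under 0.05 (limma, Benjamini-Hochberg over all 45037 probe sets tested). By this rule 3 of 17 were higher and 0 lower, beside 0.83% higher and 0.582% lower over all probe sets. An unadjusted limma p under 0.05 was found in 8 of the 17 and in 5708 of the 45037. The median change of the 17 was 0.27 on the log2 scale, beside -0.0050 over all probe sets. Both shPhf19 arrays lay above both shVector arrays in 10 of the 17, a pattern found in 19.4% of all probe sets. They lay below them in 2, a pattern found in 21% of all probe sets. The 7 genes, and the gene lists read below, were chosen with earlier results of these data known. How far that choice shaped such comparisons was not tested. Leaving out any 1 of the 4 arrays removed the 3 member calls and every other call over all probe sets. Such a fit leaves 1 array in a group. The change of Gata6 1425464_at then ran from 1.02 to 1.35. That of Sox17 1429177_x_at ran from 1.30 to 1.53 and that of Pdgfra 1421917_at from 0.97 to 1.38. These are bulk RNA samples, in which a larger share of cells expressing a gene and more RNA per cell cannot be told apart.

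**Figure D1:**
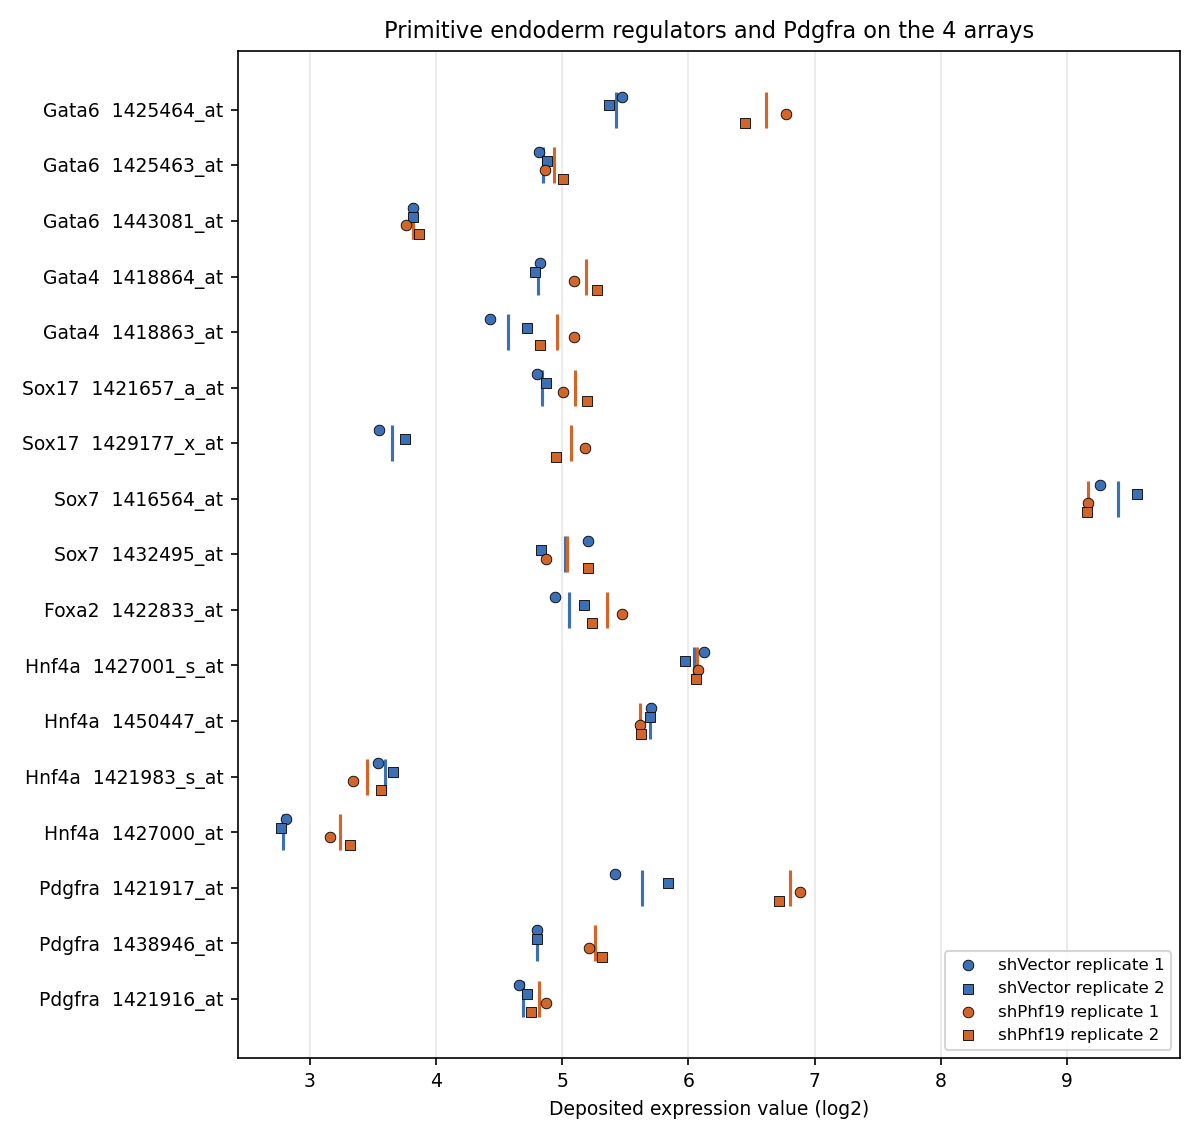
Deposited values (log2, horizontal axis) of the 17 probe sets, 1 row each, with blue symbols for the 2 shVector arrays, orange symbols for the 2 shPhf19 arrays and a vertical tick at each group's mean. The groups lie furthest apart for Sox17 1429177_x_at, Gata6 1425464_at and Pdgfra 1421917_at, with gaps of 1.20, 0.98 and 0.88 between the nearest arrays.

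Gata6 encodes the zinc finger factor that specifies primitive endoderm. Its probe set 1425464_at read 5.47 and 5.37 in the shVector arrays and 6.78 and 6.45 in the shPhf19 arrays. The groups did not overlap, and the gap between the nearest arrays (0.98) was larger than the difference between replicates in shVector (0.100) or shPhf19 (0.327). Group means were 5.42 ± 0.07 (SD, n = 2) and 6.61 ± 0.23, a change of 1.19 ± 0.13 (SE; limma adjusted p = 0.0149) or 2.28-fold with a 95% interval of 1.84 to 2.83. Over the alternative settings and with each array left out in turn the change ran from 1.02 to 1.35 and stayed above 0, while the adjusted p ran from 0.00574 to 0.692.

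The other Gata6 probe sets had changes near 0. Probe set 1425463_at, which the annotation assigns to the same source sequence as 1425464_at, read 4.81 and 4.88 in shVector and 4.86 and 5.002 in shPhf19. Its groups overlapped, and the change of 0.08 had a 95% interval from -0.16 to 0.32, which lies wholly below the interval of the called probe set (0.88 to 1.50). Probe set 1443081_at read 3.81 on both shVector arrays, to the last deposited digit, and 3.76 and 3.87 in shPhf19. Its change was 0.0017 (95% interval -0.22 to 0.22). Which part of the transcript each of these probe sets covers was not analysed here.

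Gata4, the related zinc finger factor that acts with and after Gata6 in endoderm, had 2 probe sets, and both read higher in shPhf19 without passing the test. Probe set 1418864_at read 4.83 and 4.78 in shVector and 5.10 and 5.28 in shPhf19. Probe set 1418863_at read 4.43 and 4.72 in shVector and 5.09 and 4.82 in shPhf19. In both, the shPhf19 arrays lay above the shVector arrays without overlap, by 0.27 and 0.11 between the nearest arrays. The changes were 0.38 ± 0.10 (SE) and 0.39 ± 0.14, with intervals from 0.13 to 0.63 and from 0.04 to 0.73, and neither passed (limma adjusted p = 0.185 and 0.327). The difference in change between them was -0.0034 ± 0.17 (95% interval -0.41 to 0.40).

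Sox17 and Sox7 encode related HMG box factors of the SoxF family. Sox17 probe set 1429177_x_at read 3.55 and 3.76 in shVector and 5.18 and 4.95 in shPhf19. Every shPhf19 value lay more than 1 unit above every shVector value, and the change of 1.41 ± 0.12 (SE; limma adjusted p = 0.00875), or 2.67-fold (95% interval 2.17 to 3.28), was the largest among the 17 probe sets. The second Sox17 probe set, 1421657_a_at, read 4.80 and 4.87 in shVector and 5.01 and 5.20 in shPhf19, apart by 0.14, and its change of 0.27 ± 0.11 did not pass (limma adjusted p = 0.371). The suffix _x_at marks probe sets that can also hybridise to other transcripts, so part of the 1429177_x_at signal may not be Sox17, and this was not tested. Both means of 1429177_x_at (3.65 and 5.07) lay below the median level of all probe sets.

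Sox7 is expressed in both primitive and parietal endoderm. Its probe set 1416564_at read 9.26 and 9.55 in shVector and 9.16 on both shPhf19 arrays. Both shPhf19 arrays lay below both shVector arrays, as in 1 probe set of Hnf4a and no other of the 17. The difference of -0.24 ± 0.11 (SE; 95% interval -0.50 to 0.01) did not pass (limma adjusted p = 0.421), and the replicate shVector arrays differed from each other by 0.295. It read 9.16 or more on all 4 arrays, above the median level of all probe sets in both groups. Probe set 1432495_at read 5.20 and 4.83 in shVector and 4.87 and 5.20 in shPhf19, with overlapping groups and the same value on shVector replicate 1 and shPhf19 replicate 2. Its change was 0.02 (95% interval -0.38 to 0.42).

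Foxa2, a forkhead factor of visceral and definitive endoderm, had 1 probe set, 1422833_at. It read 4.94 and 5.17 in shVector and 5.48 and 5.23 in shPhf19. The groups were apart by 0.06, less than the difference between replicates in either group (0.235 and 0.243). Its change was 0.30 ± 0.13 (SE; 95% interval -0.01 to 0.61; limma adjusted p = 0.418).

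Hnf4a, a nuclear receptor that controls metabolic and secretory genes of visceral endoderm and liver, had 4 probe sets, and none passed. Probe set 1427001_s_at, with the highest mean, read 6.12 and 5.97 in shVector and 6.08 and 6.06 in shPhf19, a change of 0.02 with an interval from -0.21 to 0.25. Probe set 1450447_at read 5.70 and 5.69 against 5.62 and 5.62. Its replicates lay within 0.01 of each other and the groups did not overlap, yet the change was only -0.08 (95% interval -0.29 to 0.14). Probe set 1421983_s_at read 3.54 and 3.66 against 3.34 and 3.57, with overlapping groups. Probe set 1427000_at read 2.81 and 2.77 against 3.16 and 3.32, a change of 0.45 ± 0.10 (SE; limma adjusted p = 0.103), at percentile 4.14 of the levels of all probe sets. The other 3 Hnf4a probe sets had intervals that span 0, and the upper limits of these correspond to at most a 1.19-fold rise.

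Pdgfra, whose receptor binds PDGF-A and sustains survival of primitive endoderm cells, had all 3 probe sets above the shVector arrays. Probe set 1421917_at read 5.42 and 5.84 in shVector and 6.89 and 6.72 in shPhf19. The gap between groups (0.88) exceeded the difference of replicates, 0.417 in shVector and 0.166 in shPhf19. Means were 5.63 ± 0.29 (SD, n = 2) and 6.80 ± 0.12, a change of 1.17 ± 0.15 (SE; limma adjusted p = 0.0238) or 2.26-fold with a 95% interval of 1.75 to 2.91. The change was 0.97 without shVector replicate 1 and 1.38 without shVector replicate 2.

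The remaining Pdgfra probe sets gave smaller changes. Probe set 1438946_at read 4.80 on both shVector arrays, to the last deposited digit, and 5.21 and 5.31 in shPhf19, a change of 0.46 ± 0.09 (SE; limma adjusted p = 0.0921). Identical values on both shVector arrays occurred in 0.862% of all probe sets, and in such a probe set the spread comes from the shPhf19 arrays and from the variance that limma borrows. Probe set 1421916_at, from the same source sequence as 1421917_at, read 4.66 and 4.72 in shVector and 4.87 and 4.75 in shPhf19, apart by only 0.04. Its change was 0.13 (95% interval -0.11 to 0.36), below the interval of 1421917_at (0.81 to 1.54).

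**Figure D2:**
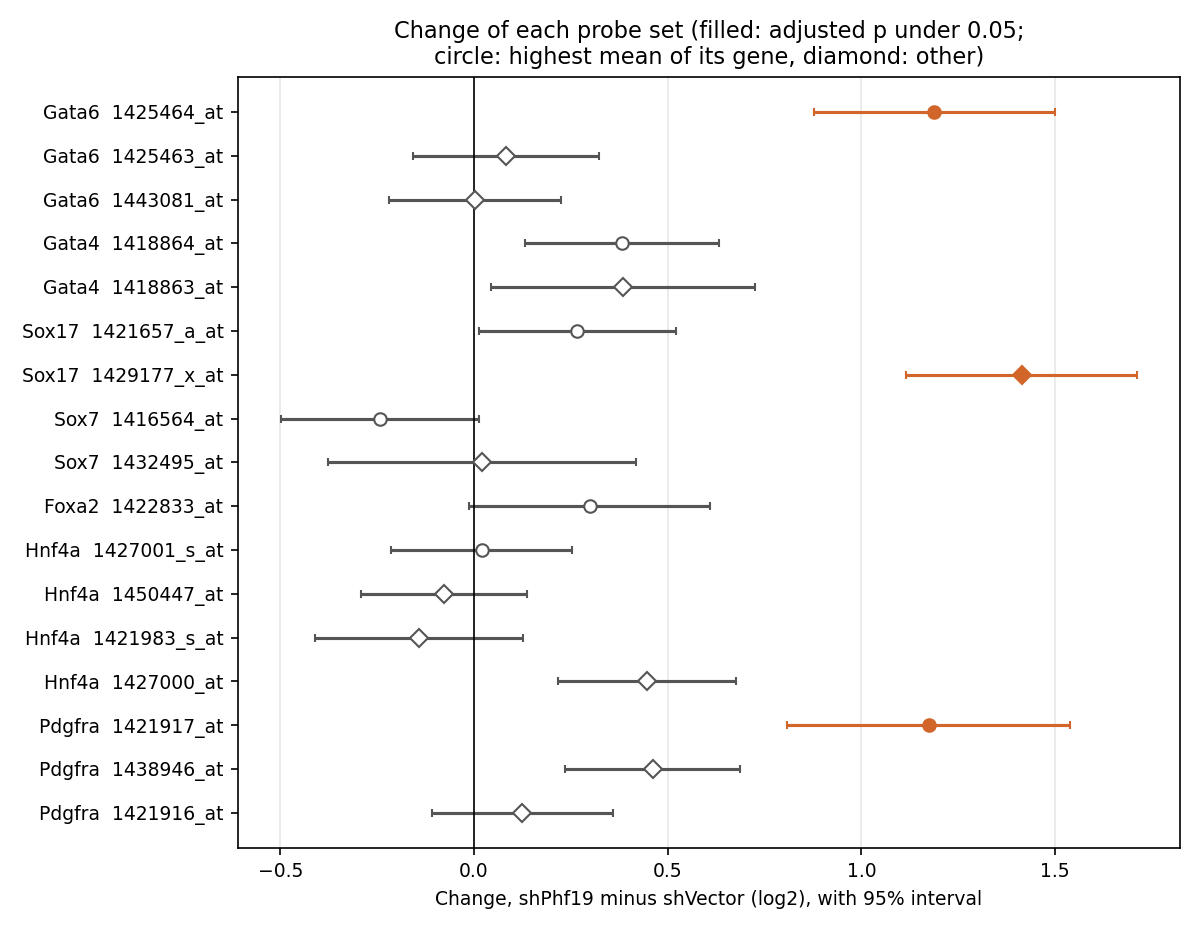
Change of each probe set (shPhf19 minus shVector, log2, horizontal axis) with limma's 95% interval; filled symbols passed an adjusted p of 0.05, circles mark the probe set with the highest mean of its gene and diamonds the others. The 3 filled symbols lie between 1.17 and 1.41, and the 14 open ones between -0.24 and 0.46.

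Whether probe sets of 1 gene changed unequally was tested on the difference between them within each array, for each gene's probe set with the highest mean against each of its others (limma, Benjamini-Hochberg over 16752 pairs of all genes). Of 10 member pairs, 1 passed, beside 0.209% over all pairs. This was the Sox17 pair, where the change of 1429177_x_at exceeded that of 1421657_a_at by 1.15 on the log2 scale (difference -1.15 ± 0.15 SE as 1421657_a_at minus 1429177_x_at; adjusted p = 0.0487). It sat just inside the threshold: the adjusted p ran from 9.28e-06 to 0.166 over the alternatives. With all 4 arrays the call was lost with quantile normalization (adjusted p = 0.0516), a robust variance prior (0.0542), no intensity trend (0.0550) and without the lowest 25% of probe sets (0.0705). It was also lost without shVector replicate 1 (adjusted p = 0.106), without shVector replicate 2 (0.0805) and without shPhf19 replicate 1 (0.166).

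No Gata6 or Pdgfra pair passed. For Gata6, 1425464_at exceeded 1425463_at by 1.11 ± 0.17 (SE; limma adjusted p = 0.0646) and 1443081_at by 1.19 ± 0.16 (adjusted p = 0.0516). For Pdgfra, 1421917_at exceeded 1421916_at by 1.05 ± 0.14 (adjusted p = 0.0516) and 1438946_at by 0.71 ± 0.17 (adjusted p = 0.187). Without shPhf19 replicate 2 both Gata6 pairs passed (limma adjusted p = 0.0341 each), and without shVector replicate 2 the Pdgfra pair of 1421917_at and 1421916_at passed (0.0486). Over the alternatives the adjusted p of these 3 pairs ran from 2.06e-05 to 0.198. The 95% intervals of these 4 differences, from 0.32 at the lowest to 1.56 at the highest, all lay above 0. The pairs of Gata4, Sox7 and Hnf4a did not pass either, with differences from -0.43 to 0.16. A gene with 1 called probe set among several was common on these arrays: of 125 genes with 2 probe sets and at least 1 called, 103 (82.4%) had exactly 1, and of 92 genes with 3 probe sets, 63 (68.5%) had exactly 1.

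When the probe sets of each gene were averaged before the fit, Sox17 was called higher at 0.84 ± 0.08 (SE; limma adjusted p = 0.00672), Pdgfra at 0.59 ± 0.09 (adjusted p = 0.0209) and Gata6 at 0.42 ± 0.07 (adjusted p = 0.0344). By the probe set with the highest mean, Gata6 and Pdgfra were called and Sox17 was not. Averaging shrank the change of Gata6 from 1.19 to 0.42 and that of Pdgfra from 1.17 to 0.59. Gata4 stood at 0.38 ± 0.08 (adjusted p = 0.0655), Foxa2 at 0.30 ± 0.12, Hnf4a at 0.06 ± 0.08 and Sox7 at -0.11 ± 0.08, and these 4 did not pass.

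**Figure D3:**
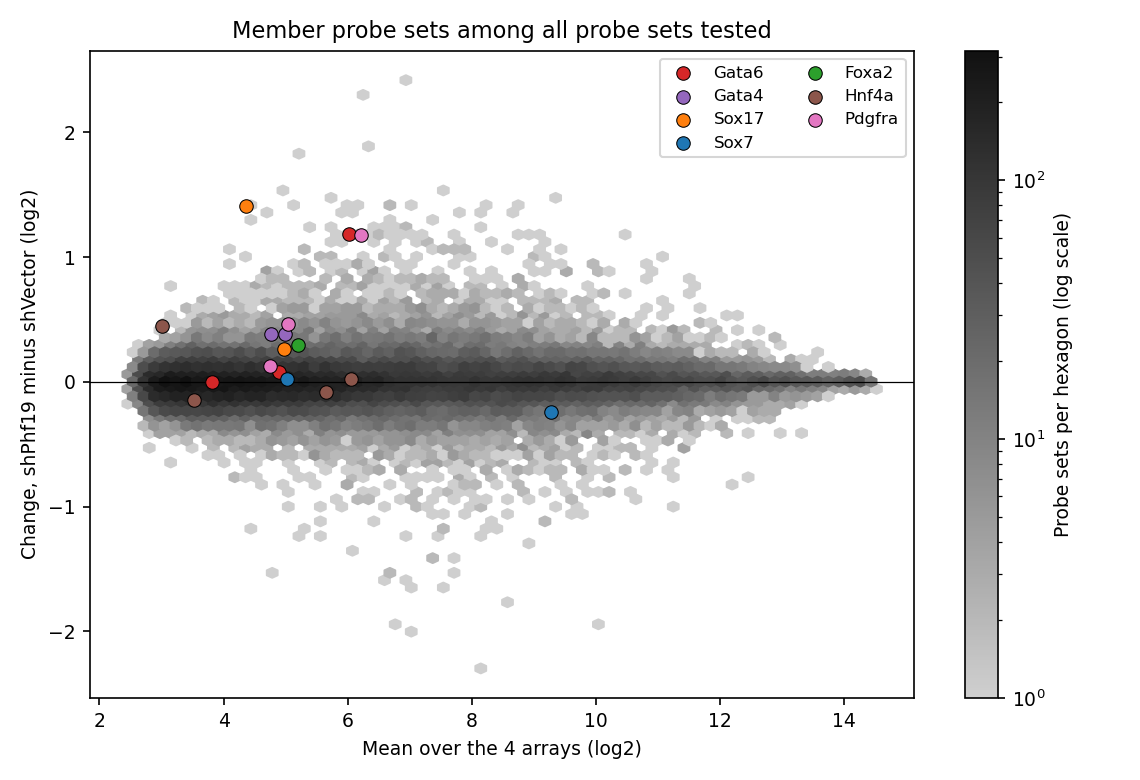
Mean over the 4 arrays (log2, horizontal axis) against change (shPhf19 minus shVector, log2, vertical axis) for all 45037 probe sets tested, shaded by their number in each hexagon on a log scale, with the 17 member probe sets in colour. Only 4 members reach the median level of 5.75 by this mean, and 2 of the 3 that were called are among them. The shVector means of these 2, 5.42 for Gata6 1425464_at and 5.63 for Pdgfra 1421917_at, lie below that level.

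By the mean over the 4 arrays, 4 of the 17 probe sets lay at or above the median level of all probe sets: 1425464_at of Gata6, 1421917_at of Pdgfra, 1416564_at of Sox7 and 1427001_s_at of Hnf4a. Detection calls were not used here, so low values could be background, and probe sets differ in affinity, so levels are not compared between genes. At least 2 arrays shared an identical value in 3 of the 17 probe sets and in 4.79% of all probe sets (7.94% below the median level and 1.64% at or above it). With a filter that removed the dimmest 50% of probe sets, 4 member probe sets remained in the test, and 1425464_at and 1421917_at were called. That filter used the same mean over the 4 arrays. In shVector alone 1425464_at and 1421917_at averaged 5.42 and 5.63, below the median level of 5.75. They reached it through their shPhf19 means (6.61 and 6.80), so their calls under this filter are no separate support for the rise.

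The profiles most like those of the called probe sets were sought among 11184 genes at or above the median level, by the root-mean-square difference of log2 values centred over the 4 arrays. This is a description of 4 arrays, and the search could find only genes with a similar rise. Nearest to Gata6 1425464_at were Fbp2, a fructose bisphosphatase (difference 0.0639), Fez1 (0.0837) and the protein kinase C gene Prkcb (0.0878). Sox17 1429177_x_at was nearest to Fam171b (0.0467), to Dab2, an endocytic adaptor of extraembryonic endoderm (0.0514), and to Zfp365 (0.0565). Pdgfra 1421917_at was nearest to the membrane protein gene Gpm6b (0.0312), to the germ cell helicase gene Ddx4 (0.0644) and to Cdkn1c, a cyclin-dependent kinase inhibitor gene (0.0723).

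Genes that act before, beside and after the 7 were read from the same fit, each by its probe set with the highest mean. Over all 18193 genes, 1.15% were called higher and 0.863% lower, with a median change of -0.0028. Of the 5 other genes of the PDGF system, 4 ligands and the beta receptor, none passed, and 4 lay below 0 (median -0.08). Pdgfa, which encodes its main ligand, read 10.12 and 10.15 in shVector and 9.74 and 9.80 in shPhf19 (change -0.36 ± 0.07 SE; limma adjusted p = 0.0654). Pdgfrb, the gene of the beta receptor, read 6.39 and 6.44 against 5.55 and 5.93 (-0.68 ± 0.14, adjusted p = 0.0923), while its other probe set was at -0.11 ± 0.11.

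In FGF and ERK signalling, the pathway that favours Gata6 in the embryo, 2 of 19 measured genes rose and 0 fell, with a median of 0.07. Both encode phosphatases that switch ERK off and are themselves induced by ERK activity. Dusp4 read 7.09 and 7.04 in shVector and 8.03 and 7.81 in shPhf19, a 1.81-fold rise (0.86 ± 0.10 SE; limma adjusted p = 0.0180). Dusp6 read 11.34 and 11.56 against 12.07 and 11.98, a 1.49-fold rise (0.57 ± 0.08, adjusted p = 0.0321). Spry2, Spry4, Etv4 and Etv5 of the same list did not pass (changes of 0.10, 0.25, 0.29 and 0.10). Whether ERK activity differed between the groups was not tested.

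Among 10 measured paralogs and partners of the 6 factors, such as Gata3, Sox18 and the GATA cofactor genes Zfpm1 and Zfpm2, none passed (median 0.05). The smallest p-values were those of Foxa3 (-0.34 ± 0.11 SE; limma adjusted p = 0.255) and Foxa1 (0.37 ± 0.17; adjusted p = 0.452). Only 1 of these 10 reached the median level of all probe sets.

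**Figure D4:**
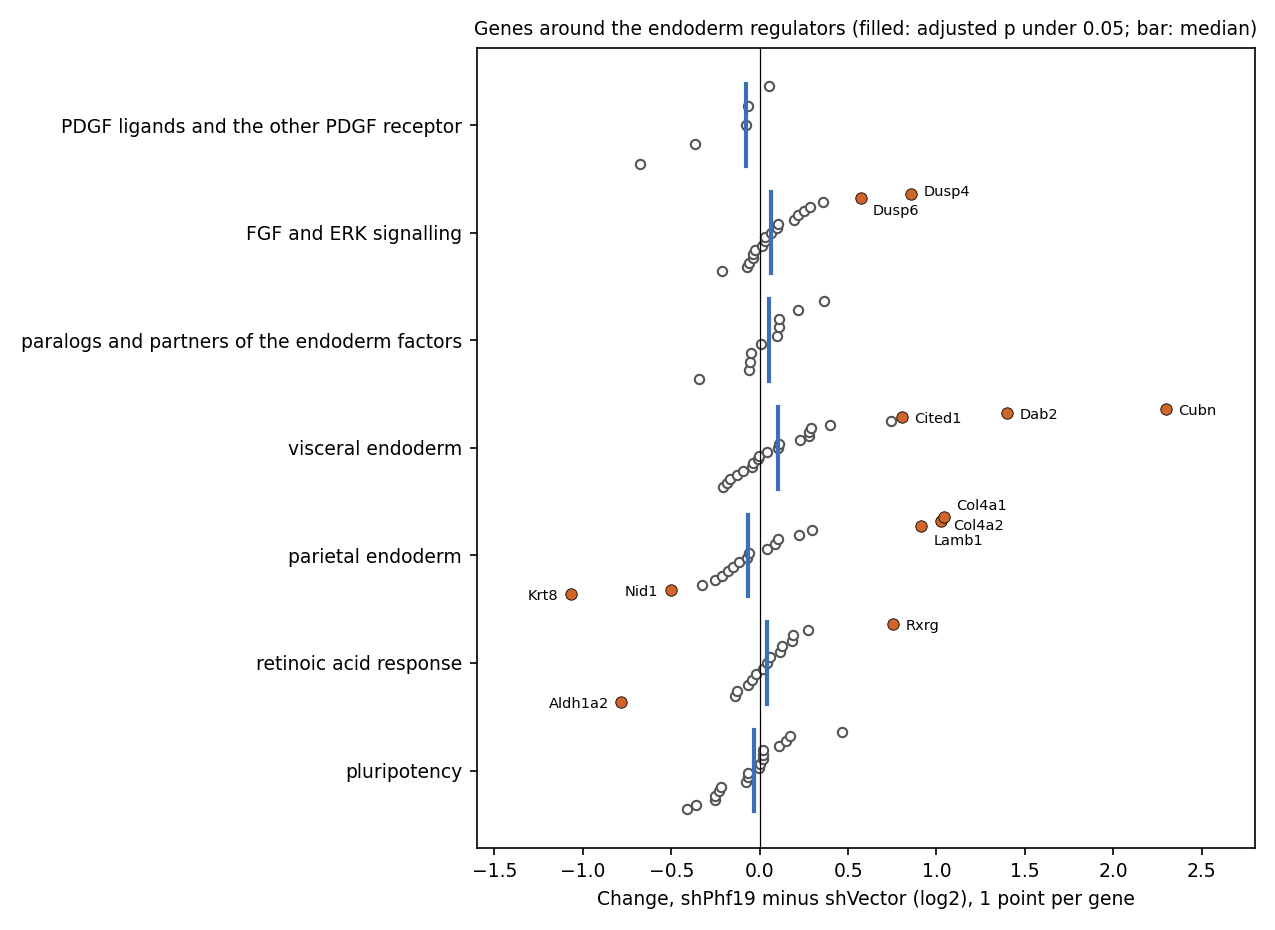
Change of each gene (shPhf19 minus shVector, log2, horizontal axis, 1 point per gene by its probe set with the highest mean) in 7 lists of genes around the endoderm regulators, with a blue bar at each list's median; filled points passed an adjusted p of 0.05 and are named. The medians lie between -0.08 and 0.10, and the named genes extend from -1.07 for Krt8 to 2.30 for Cubn.

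Genes of visceral endoderm, the layer in which Hnf4a and Foxa2 act, included 3 rises and 0 falls among 21 measured (median 0.10). The other 18 did not pass, and of all 21 changes 12 lay above 0 and 9 below. Cubn, the endocytic receptor cubilin, read 5.03 and 5.07 in shVector and 7.36 and 7.33 in shPhf19, a 4.91-fold rise (limma adjusted p = 0.00147). Dab2 rose 2.64-fold (adjusted p = 0.00863), while its other 3 probe sets had changes of 0.44, 0.23 and 0.09 and did not pass (limma adjusted p = 0.102, 0.397 and 0.797). Cited1, a transcriptional coactivator gene, rose 1.75-fold from 4.72 and 4.47 to 5.28 and 5.52 (adjusted p = 0.0486). Of the parietal endoderm list, 3 of 18 rose and 2 fell (median -0.07). The rises were those of the basement membrane genes Lamb1 (1.88-fold), Col4a1 (2.06-fold) and Col4a2 (2.04-fold), and the falls those of the keratin gene Krt8 (change -1.07) and the nidogen gene Nid1 (-0.50). Some further probe sets of these genes also passed, each in the same direction as the probe set with the highest mean. In the parietal list these were of Lamb1 (change 1.05), Col4a1 (0.66), Krt8 (-1.26 and -0.87) and Nid1 (-0.58). A further Cubn probe set passed as well (1.34). Other probe sets did not pass for Lamb1 (changes of 0.30 and 0.38) and Nid1 (-0.29).

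Retinoic acid turns F9 cells into endoderm, and of 15 measured genes for its receptors, enzymes and targets 1 rose and 1 fell (median 0.04). Rxrg, the gene of retinoid X receptor gamma, read 6.59 and 6.82 in shVector and 7.46 and 7.45 in shPhf19, a 1.69-fold rise (limma adjusted p = 0.0310). Aldh1a2, which encodes an enzyme that makes retinoic acid, read 5.50 and 5.78 against 4.91 and 4.81 (change -0.78 ± 0.12 SE; adjusted p = 0.0404). No pluripotency gene passed among 18 measured (median -0.03), and the smallest p-values were those of Prdm14 (-0.41 ± 0.08; adjusted p = 0.0689) and Klf2 (-0.36 ± 0.07; adjusted p = 0.0698). Of the 18 changes, 8 lay above 0 and 10 below. All 18 genes lay above the median level of all probe sets. Nanog, the factor that opposes Gata6, read 12.98 and 13.09 in shVector and 12.80 and 12.76 in shPhf19 (-0.26 ± 0.05; adjusted p = 0.0923).

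Markers of other tissues that use the 7 genes were read beside them. Of 10 endothelial markers, 1 rose, Esam (1.64-fold; limma adjusted p = 0.0222), and the mean of the list was 5.26 and 5.38 in shVector and 5.42 and 5.41 in shPhf19. The 12 markers of mesoderm and heart had means of 5.53 and 5.53 against 5.40 and 5.47. The smallest p-values there were those of Tbx20 (-0.71 ± 0.12 SE) and Myl7 (-0.46 ± 0.13). Other Tbx20 probe sets were at -0.38 and -0.11. None of the 12 markers passed. Nor did any of 10 fibroblast markers (4.72 and 4.71 against 4.68 and 4.68; Thy1 0.46 ± 0.12, Postn -0.24 ± 0.11), 9 of definitive endoderm and liver (5.30 and 5.26 against 5.32 and 5.33; Epcam 0.14 ± 0.07, Pdx1 0.22 ± 0.12) or 5 of floor plate and node (4.74 and 4.72 against 4.76 and 4.76; Foxj1 0.08 ± 0.09, Foxd4 0.08 ± 0.09). Of 8 trophoblast markers, 1 fell, Tfap2c (change -0.85 ± 0.10; adjusted p = 0.0177), with a mean of 5.67 and 5.62 against 5.50 and 5.59. The part of any of these cell types in the changes of Gata6, Sox17 and Pdgfra was not tested.

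Because Gata6 was among the genes that rose, the sequence before the start sites of the members was read from a RefSeq table (GRCm38.p6) for Foxa2 (3 start sites), Hnf4a (2) and Pdgfra (1), and windows of the other 4 members were not analysed here. In 250 bases before each start, both strands were searched for the GATA factor word GATAA and, separately, for the SOX factor word ACAAT. The GATA word was present in 22.6% of 32851 such windows of all genes and the SOX word in 27.7%. The Pdgfra window, which lies inside the annotated gene because other annotated transcripts start further upstream, had neither. The upstream Hnf4a start had 1 of each, with the GATA word 51 to 47 bases before the start, and the innermost Foxa2 start had the GATA word 182 to 178 bases before it, also inside the annotated gene. The outermost window of each of the 2 late factors is shown, to set a window with these words beside one without; capitals mark the words, and the Hnf4a window stops at the start of the annotated gene.
Foxa2, GRCm38.p6 chr2:148046970-148047219, minus strand: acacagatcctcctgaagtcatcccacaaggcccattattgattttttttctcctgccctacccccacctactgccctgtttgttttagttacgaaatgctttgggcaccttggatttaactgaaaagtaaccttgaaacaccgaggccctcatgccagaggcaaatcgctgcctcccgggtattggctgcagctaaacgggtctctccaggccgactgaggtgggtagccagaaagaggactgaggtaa
Hnf4a, GRCm38.p6 chr2:163506607-163506810, plus strand: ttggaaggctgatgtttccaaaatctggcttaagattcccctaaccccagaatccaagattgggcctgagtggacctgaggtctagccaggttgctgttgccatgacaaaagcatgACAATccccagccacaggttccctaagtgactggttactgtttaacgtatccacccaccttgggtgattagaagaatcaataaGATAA
A word in these windows is a match of letters only, and the binding of any factor was not measured in these samples.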

How the data were processed

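Total RNA of 4 F9 cell samples was measured on Affymetrix mouse 430 2.0 arrays. The authors deposited 1 number for each probe set on each array, taken as log2 because of its range (2.31 to 14.7). The software, background correction and normalization were not given in the sources used here. The deposited log2 values had near-equal medians on the 4 arrays and were used without further scaling. After removal of 64 control probe sets, 45037 were tested without a filter on level with limma 3.58.1 in R 4.3.3 (lmFit, eBayes with an intensity trend, two-sided, shPhf19 minus shVector, Benjamini-Hochberg). The platform annotation gave 34945 of them 1 gene symbol and 932 several, and listed none for 9160. A gene is represented by its probe set with the highest mean.

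The test was checked on simulated data, with independent values whose variances were drawn from limma's fitted prior. Such data hold no effect of a shared infection or of an array, so they cannot check for it. Named were all member probe sets, per list up to 4 called genes per direction by p (otherwise the 2 with the smallest p), and the 3 nearest profiles per called probe set; Nanog was also read as a marker. Of the listed genes, those without a probe set of their own were not analysed here. Members and lists were chosen with earlier results of these data known. The number of arrays limits the precision. No source pairs the replicate numbers across groups, so no replicate term was used. Same-numbered arrays deviated from their group means with a correlation of -0.197. For crossed numbers it was 0.197, the mirror value that 2 arrays per group impose. Alternatives were median centring, quantile normalization, no intensity trend, a robust variance prior, filters on low levels, a replicate block, averaged probe sets and each array left out.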

Additional observations from a re-analysis of the deposited data

How the results depend on the processing

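The 3 member calls (Gata6 1425464_at, Sox17 1429177_x_at, Pdgfra 1421917_at) held with median centring, quantile normalization, no intensity trend and a robust variance prior. They also held without the lowest 25% of probe sets. Without the lowest 50%, 1429177_x_at was not tested. Both filters used the mean over all 4 arrays, which a rise in shPhf19 also lifts. With 1 array left out, calls ran from 0 to 0 for member probe sets, list genes (12 with all arrays) and all probe sets, and from 0 to 19 for unequal pairs (35 with all arrays). Such a fit leaves 1 array in a group, assumed to vary like the other group. A replicate block gave 0 member, 0 list gene and 0 probe set calls (3890 at an unadjusted p under 0.05) and 265 unequal pairs, with all 4 Gata6 and Pdgfra pairs among them (adjusted p from 2.06e-05 to 0.0116); no source pairs the numbers. A block of crossed numbers, chosen after seeing the data, gave 3 member calls and 194 unequal pairs. Without an intensity trend 380 probe sets were called. Unequal pairs numbered 12 without the lowest 25% and 0 without the lowest 50% (limma; 601 at an unadjusted p under 0.05). Changes that turned sign had not passed; with 1 array left out they ran from -0.049 to 0.053 for Gata6 1443081_at, from -0.17 to 0.21 for Sox7 1432495_at and from -0.053 to 0.093 for Hnf4a 1427001_s_at. The pair differences that turned sign ran from -0.23 to 0.22 for Gata4 and from -0.60 to 0.071 for Sox7. The cause of these shifts was not tested.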
